A study of Mus musculus with 14 samples.

Results

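Mbp, Mobp, Mag, Mog, Cnp, Mal, Cldn11, Opalin and Ermn encode proteins of myelin, and all 9 were followed through 14 single-cell libraries from the lateral hypothalamic area of the mouse. They were chosen by name from 21568 gene symbols, and each of them was listed in every count table. Single cells from tissue punches had been captured with barcoded beads (Drop-seq), and transcripts were counted as unique molecular identifiers (UMIs). All animals were male wild-type C57BL/6J mice with no allele or transgene named, and each library held 1 mouse. Of the mice, 7 had free access to a control chow and 7 to a high fat diet that the chow matched in taste, and no age or time on the diet is used here. Pool 1 of the sequencing held 4 mice of each diet and pool 2 held 3 of each.

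Oligodendrocytes wrap axons in many turns of their own membrane, and myelin is this membrane once it has been compacted. Mbp (myelin basic protein) holds the cytoplasmic faces of compact myelin together, and Mobp is a second basic protein of the compact layers. Mag and Mog are adhesion molecules of the immunoglobulin family, placed at the innermost and the outermost surface of the sheath. Cldn11 forms the tight junctions of the sheath, Mal is a proteolipid of membrane rafts, and Opalin is a transmembrane glycoprotein of oligodendrocytes. Cnp, a phosphodiesterase of the uncompacted channels, and Ermn, which binds actin in late stages of maturation, belong to the cytoskeletal side. Oligodendrocyte precursor cells (OPCs) divide in the adult brain and pass through a newly formed stage before they make myelin, and neurons make none.

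The tables held 28410 barcodes, of which 15378 had 500 or more UMIs from 300 or more genes, with no more than 20% from mitochondrial genes, and 15164 remained as cells after 214 doublets had been removed. Libraries held 147470 to 5611524 UMIs and 49 to 1753 kept cells, and 3 kept barcodes occurred in more than 1 library. Cells were clustered without the 9 genes, and the 19 clusters were named from markers of which none is a member. Oligodendrocytes numbered 6176, neurons 6192, astrocytes 915, OPCs 641, endothelial cells 589, microglia 447, mural cells 113, fibroblasts 42 and newly formed oligodendrocytes 32, with 17 cells unnamed. Hcrt and Pmch, neuropeptide genes of the lateral hypothalamus, led 1 neuron cluster each. Of the 4 oligodendrocyte clusters 3 met all 8 oligodendrocyte markers and the other met 7.

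In oligodendrocytes the 9 genes together took 47696 ± 3275 CPM, where CPM are UMIs of a gene per 1000000 UMIs of the class (SD, n = 14 mice). Mbp was the highest at 13538 ± 1769 CPM. Ermn followed at 6510 ± 1159 CPM, Mag at 5613 ± 667, Mal at 5008 ± 415, Cnp at 4933 ± 743, Mobp at 4368 ± 740 and Cldn11 at 4190 ± 443 CPM. In this run neighbours lay apart by less than the larger of their 2 SDs. Mog stood below them at 2156 ± 168 CPM and Opalin was the lowest at 1380 ± 428 CPM. These are UMIs of a method that reads transcripts from their end, with no value per transcript length. Relative to its mean Opalin varied most between mice, from 688 CPM in control replicate 5 to 2335 CPM in control replicate 6, and Mog least, from 1949 to 2473 CPM. The 2 extremes of Opalin came from the same diet.

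**Figure D1:**
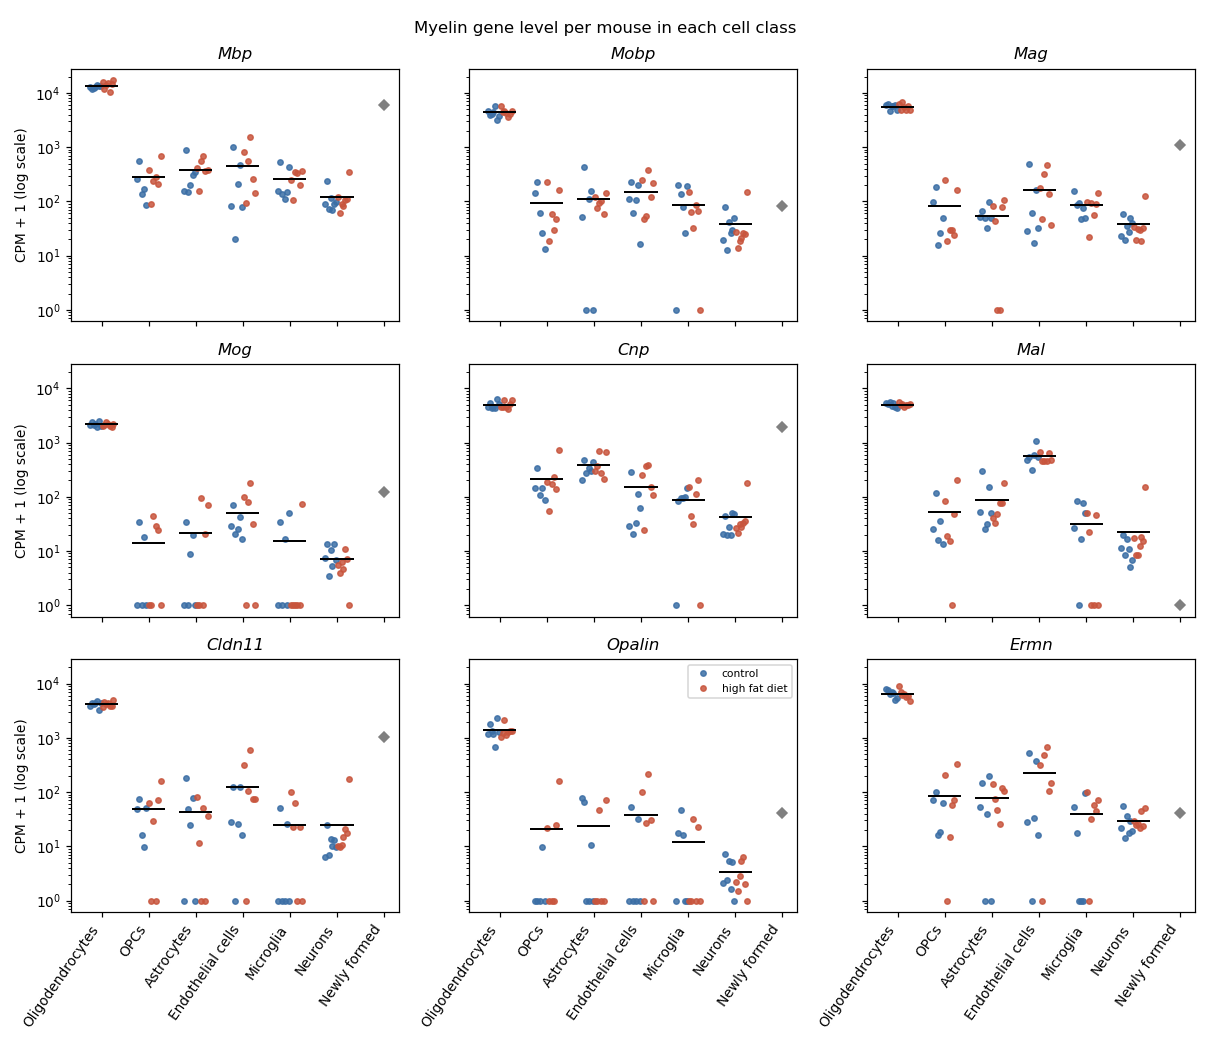
Level of each myelin gene as CPM + 1 on a log axis, with 1 point per mouse with at least 10 cells of the class, blue for control and red for high fat diet, and a line at the mean. A grey diamond gives the pooled value of the 32 newly formed oligodendrocytes. Points at 1 are mice with no UMI of the gene. Oligodendrocytes stand above every other class in all 9 panels, Mal is the gene with a raised endothelial level, and Cnp with a raised astrocyte level.

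Single oligodendrocytes carried nearly the whole set. With every cell thinned to 500 UMIs, the median oligodendrocyte held 8 of the 9 genes and 99.6% held at least 5. Without thinning, 52.2% held all 9 at a median of 1095 UMIs per cell. After thinning, Mbp was seen in 99.6% of oligodendrocytes, Ermn in 94.1%, Mag in 92.4%, Cnp in 89.6%, Mal in 89.3%, Cldn11 in 87.0%, Mobp in 86.9%, Mog in 65.7% and Opalin in 45.5%. In neurons, which make no myelin, the thinned shares ran from 0.145% for Opalin to 6.17% for Mbp, and in microglia from 0.224% to 11.2%. Whether the neurons made these transcripts themselves was not tested. The unthinned shares in neurons, at a median of 3432.5 UMIs, ran from 0.840% to 28.0%, and that of Opalin in oligodendrocytes was 65.6%.

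The 32 newly formed oligodendrocytes, too few in any mouse for a value per mouse, held an uneven part of the set. Pooled over mice, Mbp stood at 6125 CPM (307 of 50126 UMIs, exact Poisson 95% interval 5459 to 6849, counting error only), Cnp at 1955 CPM (1587 to 2383), Mag at 1097 (827 to 1428) and Cldn11 at 1057 (792 to 1383). Mobp had 4 UMIs (79.8 CPM, 21.7 to 204), Mog 6 (120 CPM, 43.9 to 261), and Ermn and Opalin 2 each (39.9 CPM, 4.83 to 144). Mal had 0 UMIs, and the interval allowed up to 73.6 CPM. Mbp thus made up 58.3% of the UMIs of the 9 genes in these cells and 27.6% in oligodendrocytes, while Ermn made up 0.380% and Mobp 0.759%. The cluster rests on Enpp6, Bmp4, Neu4, Gpr17 and Fyn, the 5 markers of newly formed oligodendrocytes used, and it also met 4 OPC markers.

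OPCs held the 9 genes together at 880 ± 720 CPM (SD, n = 11 mice with at least 10 OPCs), 1.83 ± 1.49% of the oligodendrocyte level of the same mouse. Cnp stood out among them at 212 ± 189 CPM, 4.41 ± 3.65% of its oligodendrocyte level, beside 281 ± 191 CPM for Mbp (2.10 ± 1.39%). Cnp made up 23.2% of the UMIs of the 9 genes in OPCs and 9.89% in oligodendrocytes. Its highest OPC value, 730 CPM from 18 UMIs, was that of high fat diet replicate 6. Mog (13.1 ± 16.3 CPM) and Opalin (19.5 ± 48.2 CPM) had 0 UMIs in the median mouse. In 76.1% of OPCs, thinned to 500 UMIs, none of the 9 genes was seen. Oligodendrocyte markers summed to 2697 to 4857 CPM in OPCs of control mice and 2644 to 6574 CPM in those of high fat diet mice. None of the 8 markers was at 0. The OPC cluster also met 3 markers of newly formed oligodendrocytes, with Neu4 and Gpr17 among its leading genes. Newly formed markers summed to 1413 to 2364 CPM in OPCs of control mice and 1485 to 2031 CPM in those of high fat diet mice. The part of oligodendrocyte RNA and of newly formed cells in these levels was not tested.

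2 of the genes stood apart from the others in a class that makes no myelin. Mal reached 558 ± 193 CPM in endothelial cells (SD, n = 12 mice), 11.1 ± 3.71% of its oligodendrocyte level, while the other 8 genes stood at 2.25 to 3.32% of theirs. It lay between 315 and 1088 CPM in every one of the 12 mice, whereas endothelial Mbp ran from 19.7 to 1557 CPM. Mal was seen in 22.8% of endothelial cells thinned to 500 UMIs, against 12.4% for Mbp, and it supplied 31.0% of the UMIs of the 9 genes there. Cnp reached 377 ± 164 CPM in astrocytes (n = 12), 7.78 ± 2.53% of its oligodendrocyte level, against 0.922 to 2.90% for the other 8. It was seen in 14.5% of thinned astrocytes and ran from 205 to 695 CPM over the 12 mice. Classes are clusters, so these differences are given with no test.

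**Figure D2:**
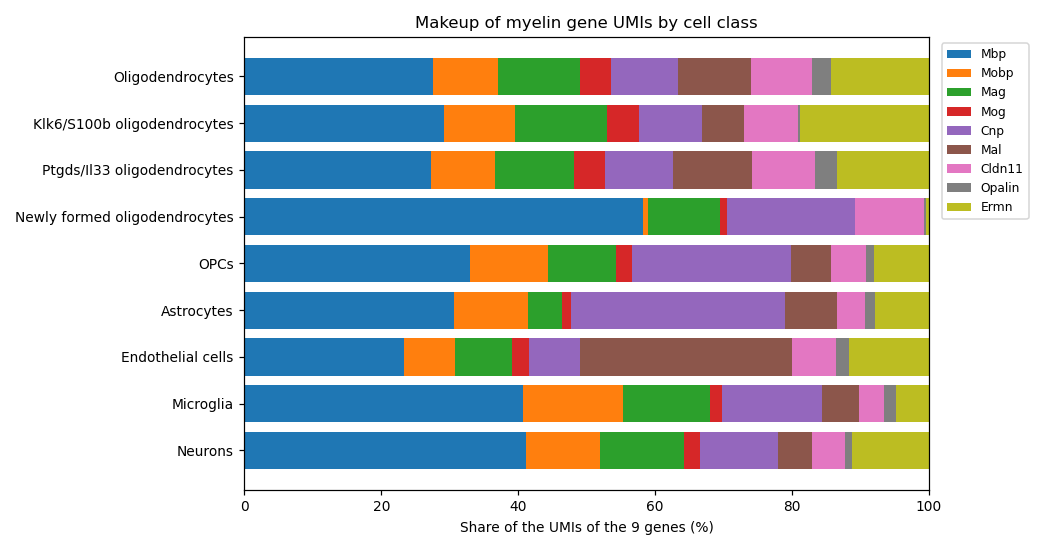
Share of the UMIs of the 9 myelin genes that each gene supplies, in percent, pooled over the cells of each class. Mal takes 31.0% in endothelial cells, Cnp 31.3% in astrocytes and Mbp 58.3% in newly formed oligodendrocytes, while neurons show 41.1% Mbp and 5.01% Mal.

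Over the oligodendrocytes and 6 other classes, genes whose mean level closely followed the sum of the 9 were Ptgds (Pearson r = 0.992 on log2 of CPM plus 10), Gm21984 (0.991), Efcab14 (0.985) and Apod, a lipid carrier (0.981). These values describe 7 classes, 1 of which holds nearly all of the signal, and the classes share their libraries.

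Oligodendrocytes of the area were divided into 2 types by a rule on 2 pairs of genes. Klk6 is a secreted serine protease and S100b a calcium-binding protein, while Ptgds makes prostaglandin D2 and Il33 is a nuclear cytokine. A cell was called Klk6/S100b type when its UMIs of Klk6 and S100b together exceeded those of Ptgds and Il33, which gave 767 cells (12.4%), and Ptgds/Il33 type in the opposite case, 5297 cells (85.8%), with 112 cells unassigned. The Klk6/S100b share ran from 5.36 to 17.3% of oligodendrocytes over control mice and from 5.0 to 15.5% over high fat diet mice. The 4 defining genes were left out of the test, none of the 9 myelin genes was used to set the types, and 12 mice (6 of each diet) had at least 10 cells of each. Before the test, Opalin and Mal were among the leading genes of the largest Ptgds/Il33 cluster, beside Ptgds and Il33. Their p-values between the types are therefore no independent support for the split. Cells of the Klk6/S100b type had a median of 1562 UMIs and those of the other type 1053.

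The 9 genes together differed little between the types, at 46120 ± 4309 CPM in Klk6/S100b cells and 47816 ± 3273 CPM in Ptgds/Il33 cells of the same 12 mice (SD), but single genes were shifted in opposite directions. Against Ptgds/Il33 cells, Klk6/S100b cells had a log2 fold change of −3.91 for Opalin, −0.96 for Mal and 0.46 for Ermn. By the edgeR quasi-likelihood test with the mouse as a block, 7 of the 9 genes passed with a p, adjusted by Benjamini-Hochberg, under 0.05, 3 higher and 4 lower in Klk6/S100b cells. Of all 3402 genes tested 28.8% passed, 15% higher and 13.8% lower, with 1273 at an unadjusted p under 0.05. The median log2 fold change of the 9 was −0.029 and that of all genes 0.0057.

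**Figure D3:**
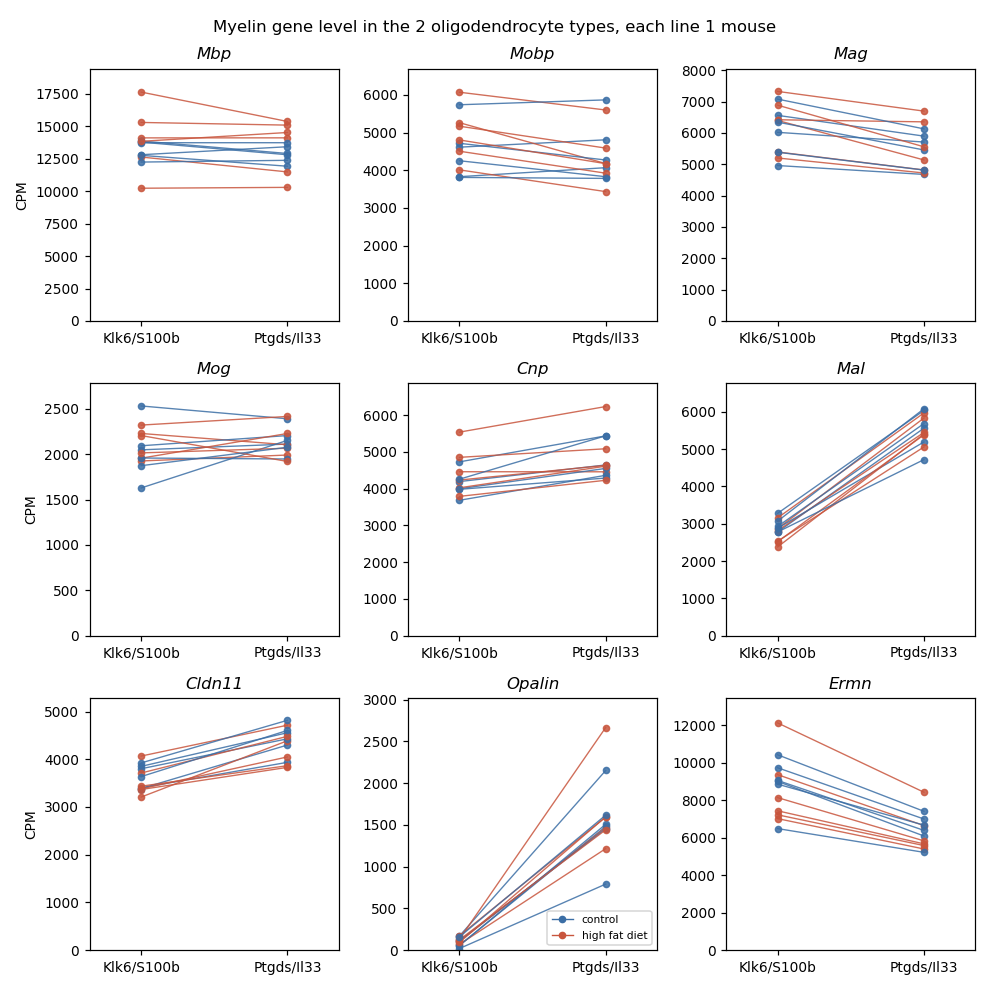
CPM of each myelin gene in Klk6/S100b and Ptgds/Il33 oligodendrocytes, each line joining the values of 1 mouse, blue for control and red for high fat diet, on axes from 0. All 12 lines rise from left to right for Opalin, Mal and Cldn11, and all 12 fall for Ermn and Mag.

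Opalin ran from 19.3 to 172 CPM over the 12 mice in Klk6/S100b cells (median 109) and from 791 to 2667 CPM in Ptgds/Il33 cells (median 1495). The groups did not overlap, and the lowest Ptgds/Il33 value was above the highest Klk6/S100b value. By edgeR the difference was −3.91 on the log2 scale (SE 0.083, adjusted p = 9.48e-153), and Opalin was lower in 12 of 12 mice. DESeq2 gave −3.96 with a larger SE of 0.21. It was seen in 4.82% of Klk6/S100b cells and 51.8% of Ptgds/Il33 cells thinned to 500 UMIs. All 9 genes were seen together in 11.1% of Klk6/S100b cells and 58.5% of Ptgds/Il33 cells without thinning.

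Mal, the raft proteolipid, ran from 2377 to 3280 CPM in Klk6/S100b cells (median 2844) and from 4720 to 6084 CPM in Ptgds/Il33 cells (median 5507). Its groups did not overlap either. The share of all tested genes without overlap is not given here, so non-overlap is not shown to be particular to Opalin and Mal. By edgeR the difference was −0.96 on the log2 scale (SE 0.034, adjusted p = 5.35e-90), and Mal was lower in 12 of 12 mice. Cldn11, the claudin of the sheath, was lower in 12 of 12 mice by a smaller step, from 4330 ± 337 CPM in Ptgds/Il33 cells to 3597 ± 271 CPM (SD; log2 fold change −0.26, SE 0.033, adjusted p = 1.11e-12). Cnp was lower in 11 of 12 mice, at 4310 ± 520 against 4830 ± 602 CPM (log2 fold change −0.15, SE 0.032, adjusted p = 1.35e-05). The ranges of Cldn11 and Cnp overlapped between the types.

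Ermn, the actin-binding protein, ran from 6479 to 12110 CPM in Klk6/S100b cells (median 8920) and from 5214 to 8417 CPM in Ptgds/Il33 cells (median 6234). The ranges overlapped, yet Klk6/S100b cells were higher in 12 of 12 mice (log2 fold change 0.46, SE 0.028, edgeR adjusted p = 3.22e-43). Mag was higher in 12 of 12 mice, at 6163 ± 776 against 5497 ± 682 CPM (log2 fold change 0.18, SE 0.030, adjusted p = 1.10e-07). Mobp was higher in 9 of 12, at 4733 ± 724 against 4378 ± 732 CPM (0.13, SE 0.032, adjusted p = 0.000346). Mbp (13584 ± 1787 against 13176 ± 1512 CPM; log2 fold change 0.054, SE 0.027, adjusted p = 0.122) and Mog (2066 ± 234 against 2135 ± 157 CPM; −0.029, SE 0.039, adjusted p = 0.638) did not pass.

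The small differences changed with the filter on low counts and with the block. In the fit with no filter on low counts the median of all genes fell to −0.27 and 31.8% of calls were higher, against 52.2% with the filter. There Mag lay at 0.015 (adjusted p = 0.827) and Mobp at −0.031 (adjusted p = 0.79), Mbp (−0.11) and Mog (−0.19) passed as lower, and Opalin (−4.06), Mal (−1.12) and Ermn (0.30) passed in the direction given above. Without the mouse block the 4 largest differences passed (Opalin, Mal, Ermn and Cldn11) and those of Mag, Mobp and Cnp did not.

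A cluster of 755 cells led by Serpinb1a, Anln and Plin3 held 634 Ptgds/Il33 and 61 Klk6/S100b cells and had intermediate levels of Opalin, Mal and Ermn. Its Opalin stood at 1118 ± 407 CPM (SD, n = 12 mice), Mal at 4947 CPM and Ermn at 7327 CPM. The cluster led by Klk6, S100b and Enpp6 held 906 cells, 696 of Klk6/S100b type and 175 of Ptgds/Il33 type. Opalin, Mal and Ermn had 222, 3126 and 8474 CPM there. The 2 large Ptgds/Il33 clusters had 1899 and 1648 CPM of Opalin, 5778 and 5646 of Mal, and 5984 and 6106 of Ermn. Mbp and Mog differed little among the 4 clusters, from 13014 to 14230 CPM and from 2110 to 2181 CPM. These cluster values are a description.

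The sequences before the start of the genes that marked the split are shown. Mobp is added as a gene whose difference between the types was small (log2 fold change 0.13) but passed. Matched by symbol, 8 of the 9 genes had an upstream sequence in RefSeq (GRCm38.p6). Each line runs 5′ to 3′ on the gene's strand and ends at the base before the first annotated start, and capitals mark ACAAAG or its reverse complement CTTTGT, a core sequence bound by SOX factors such as Sox10.
Opalin, chr19:41077114-41077363, minus strand: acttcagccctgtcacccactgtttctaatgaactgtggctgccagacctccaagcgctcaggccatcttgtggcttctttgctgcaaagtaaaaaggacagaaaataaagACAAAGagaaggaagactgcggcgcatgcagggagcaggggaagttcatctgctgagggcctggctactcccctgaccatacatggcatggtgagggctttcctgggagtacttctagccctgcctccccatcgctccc
Mal, chr2:127656696-127656945, minus strand: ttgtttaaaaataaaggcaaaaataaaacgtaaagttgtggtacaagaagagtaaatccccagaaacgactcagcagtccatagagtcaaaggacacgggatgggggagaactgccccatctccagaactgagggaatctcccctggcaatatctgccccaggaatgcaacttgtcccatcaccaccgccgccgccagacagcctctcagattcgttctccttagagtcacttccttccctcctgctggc
Ermn, chr2:58052865-58053114, minus strand: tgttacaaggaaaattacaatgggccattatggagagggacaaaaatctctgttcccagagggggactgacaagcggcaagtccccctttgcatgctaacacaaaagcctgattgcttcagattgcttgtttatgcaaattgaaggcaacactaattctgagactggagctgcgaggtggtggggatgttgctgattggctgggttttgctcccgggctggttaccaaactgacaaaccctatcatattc
Mobp, chr9:120149492-120149706, plus strand: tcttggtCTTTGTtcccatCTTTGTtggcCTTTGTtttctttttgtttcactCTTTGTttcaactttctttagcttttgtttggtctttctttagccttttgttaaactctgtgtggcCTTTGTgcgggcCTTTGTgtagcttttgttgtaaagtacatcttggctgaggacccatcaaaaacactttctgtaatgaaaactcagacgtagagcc
The Opalin sequence held 1 copy, Mal and Ermn 0 and Mobp 6. Of 32851 mouse promoter entries of the same length (250 bases before a start), 16.5% held at least 1 copy on either strand, and 1 held 6 or more, the one of Mobp. In that window Cnp also had 1 copy, Mag 1 at 2 of its 3 starts, and Mog and Cldn11 0. CTGGCAC, a motif of the myelin regulator Myrf searched on both strands, occurred in 4.19% of entries, among them Cnp and 2 of the 3 Mag starts, and TATAAA in 12.4% and in no entry of these genes. Such matches describe letters only, and they were looked for after the levels were known.

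In GRCm38 (GENCODE M21) Opalin spans chr19:41061710-41077113 and Mal chr2:127633226-127656695, both on the minus strand. Ermn lies on the minus strand of chr2:58045113-58052864 and overlaps Galnt5 on the other strand. Mobp lies on the plus strand of chr9:120149707-120181484 and overlaps Gm38642 on the same strand. Cnp (chr11:100574904-100591729, plus) overlaps Dnajc7 and Mog (chr17:37010743-37023398, minus) overlaps Gm22388, both on the other strand. Mag (chr7:30899176-30914873, minus) and Cldn11 (chr3:31149920-31164324, plus) overlap no other annotated gene, and Mbp, on chromosome 18, overlaps Rpl21-ps8 on the other strand. The counting rule for overlaps and strand is not given in the sources used here, so the counts of overlapping genes are less certain.

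Other myelin genes, listed by role with earlier results of these data known, also split between the types. Some of them, such as Cryab, Tspan2, Sept4 and Apod, were already leading genes of oligodendrocyte clusters. Of all 3402 genes in this fit 28.8% passed, 15% higher and 13.8% lower. Among 15 membrane and adhesion genes 7 were higher and 7 lower in Klk6/S100b cells, with a median log2 fold change of −0.012. The tetraspanins Cd9 (−2.93) and Tspan2 (−1.46) were lower, and Pmp22 (1.45), a membrane protein best known from peripheral myelin, and Gjb1 (0.97), a gap junction connexin, were higher. Among 11 lipid and metabolic genes 6 were higher and 3 lower (median 0.47), with Apod (1.46) and the iron carrier Trf (0.73) higher, Qdpr (−1.11), which recycles tetrahydrobiopterin, lower, and Ugt8a (0.50), which makes galactosylceramide, higher. Among 10 cytoskeletal and signalling genes 3 were higher and 4 lower (median −0.017), with the actin-severing Gsn (1.23) and Ndrg1 (0.32) higher and the small heat shock protein Cryab (−0.97) and the septin Sept4 (−0.72) lower. Of 8 transcription factors 6 passed the filter on low counts in this fit, 0 were higher and 4 were lower (median −0.44), namely Olig2 (−1.11), Zfp536 (−0.89), Olig1 (−0.55) and Sox10 (−0.33). The values of single genes are log2 fold changes of genes that passed the edgeR test at an adjusted p under 0.05. The medians are over all tested genes of a list, passed or not.

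Diet was compared with mice as replicates, in oligodendrocytes first. Mbp ran from 12080 to 13745 CPM over the 7 control mice (median 13093) and from 10274 to 17306 CPM over the 7 high fat diet mice (median 14373). The high fat diet mice lay on both sides of the control mice, with an SD of 2395 against 587 CPM. The highest of these values was that of high fat diet replicate 7, which had 20 oligodendrocytes with 58129 UMIs. Opalin ran from 688 to 2335 CPM in control mice (median 1303) and from 1055 to 2113 CPM in high fat diet mice (median 1309). All 9 genes overlapped between the diets. The 9 together stood at 47168 ± 1816 CPM on control chow and 48225 ± 4392 CPM on the high fat diet (SD, n = 7 each).

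None of the 9 genes passed the diet test in oligodendrocytes, and 0 of 6087 genes did (0%), with 104 at an unadjusted p under 0.05 by edgeR and 0 passing by DESeq2. The log2 fold changes, high fat diet minus control, ran from −0.049 (Ermn, SE 0.14) to 0.097 (Mbp, SE 0.11), with an SE of 0.20 for Opalin and an adjusted p of 0.9999 for each. The median of the 9 was −0.0036 and that of all genes 0.0056. Within pool 1 the fold changes of Mbp and Mobp were 0.26 and 0.20, and within pool 2 they were −0.14 and −0.19. In the lists of other myelin genes given above 0 of 15 membrane, 0 of 11 lipid, 0 of 10 cytoskeletal and 0 of 7 transcription factor genes tested passed.

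**Figure D4:**
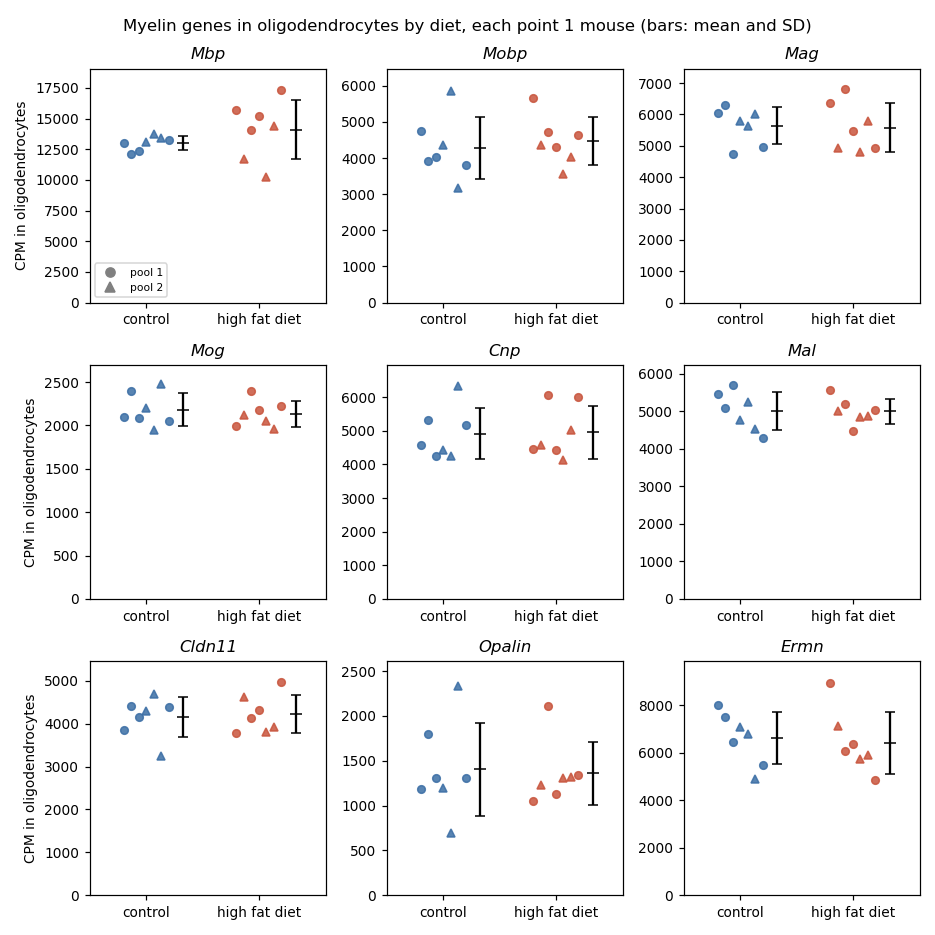
CPM of each myelin gene in oligodendrocytes by diet, 1 point per mouse, circles for pool 1 and triangles for pool 2, with the mean and SD beside each diet and axes from 0. The diets overlap in all 9 panels, and the 2 lowest Mbp values on the high fat diet are of pool 2.

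Within each type the diet test also called 0 genes, of 2086 tested in Klk6/S100b cells (0%, 77 at an unadjusted p under 0.05) and 5338 in Ptgds/Il33 cells (0%, 113). The fold changes of the 9 genes ran from −0.10 (Mal) to 0.31 (Opalin, SE 0.35) in Klk6/S100b cells and from −0.042 (Ermn) to 0.11 (Mbp) in Ptgds/Il33 cells. The test of whether the diet difference differed between the types called 0 of 4132 genes (0%, 190 at an unadjusted p under 0.05). Mobp had the smallest p of the 9 there, with a difference of 0.19 on the log2 scale (SE 0.061, unadjusted p = 0.00188, adjusted p = 0.738). It lay at 0.18 in pool 1 and 0.21 in pool 2, and it did not pass.

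In OPCs, Mbp ran over 85.7, 135, 171, 263 and 551 CPM in 5 control mice, and from 89.4 to 690 CPM in 6 high fat diet mice (median 261). Mbp alone of the 9 genes passed the filter on low counts there, and its log2 fold change was 0.23 (SE 0.50, edgeR adjusted p = 0.985), with 0 of 1307 genes called (0%, 48 at an unadjusted p under 0.05). Within pool 1 it was −0.22 and within pool 2 0.93. The other 8 genes were too low to test, and Cnp ran from 85.7 to 342 CPM in control mice and from 53.7 to 730 CPM in high fat diet mice.

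Neurons held 6023 UMIs of the 9 genes in 26710584 UMIs. Per mouse the 9 together stood at 318 ± 265 CPM (SD, n = 14), 0.659 ± 0.510% of the oligodendrocyte level. The median mouse had 263 CPM and the highest, high fat diet replicate 7, had 1178 CPM from 12 neurons. Control replicate 2 came next at 532 CPM, and the other 12 mice lay between 151 and 290 CPM. Single genes stood at 0.165% (Opalin) to 0.882% (Mobp) of their oligodendrocyte level. Oligodendrocyte markers that are not members summed to 235 to 968 CPM in neurons of control mice and 251 to 3158 CPM in those of high fat diet mice, and their part in these levels was not tested.

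The makeup of the neuronal UMIs differed from that of oligodendrocytes in some genes, given with no test. Mbp supplied 41.1% of the UMIs of the 9 genes in neurons (29.8 to 47.3% by mouse) and 27.6% in oligodendrocytes (24.8 to 33.7%), Mal 5.01 and 10.6%, Cldn11 4.86 and 8.96%, and Opalin 0.980 and 2.71%. In barcodes with fewer than 500 UMIs, which were not kept as cells, the 9 genes stood at 9498 ± 3185 CPM (SD, n = 14), with 31.6% from Mbp and 10.8% from Mal. Among the 7 neuron clusters the 9 genes together stood at 488 CPM in the cluster of lowest depth (1212 cells, median 940 UMIs) and at 156 to 260 CPM in the other 6 (medians from 2513 to 6169 UMIs). Of all neurons 49.8% had no UMI of the 9 genes, and 87.2% had none when thinned to 500 UMIs.

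Neuronal levels were set against the share of each mouse's kept UMIs that lay in oligodendrocytes, which ran from 12.1 to 49.0%. Pearson's r over the 14 mice was 0.86 for Mobp and 0.81 for Mbp (permutation test, two-sided, adjusted over 9 genes p = 0.00045 and 0.00504), and it lay between 0.64 and 0.74 for Mag, Cnp, Cldn11, Mal and Ermn (adjusted permutation p from 0.00526 to 0.0161). For Mog r was 0.042 and for Opalin −0.013. Spearman's rho was highest for Mobp at 0.69 (permutation p = 0.00771, adjusted p = 0.0694), and no gene passed on ranks. Without the 2 mice farthest from the median share, r was 0.75 for Mobp, 0.29 for Mbp, 0.46 for Cnp and 0.074 to 0.26 for Mag, Mog, Mal, Cldn11 and Ermn, and −0.13 for Opalin. Both of those mice, high fat diet replicate 7 and control replicate 2, are of pool 1. Within pool 1 (n = 8) r was 0.88 for Mobp, 0.82 for Mbp and Mag, 0.76 for Cnp, 0.72 for Ermn, 0.67 for Cldn11, 0.64 for Mal, 0.16 for Mog and −0.030 for Opalin. Within pool 2 (n = 6), without those mice, r was 0.84 for Mal, 0.61 for Cldn11, 0.53 for Mbp, 0.36 for Mobp, 0.28 for Ermn, 0.24 for Opalin, 0.064 for Mog, −0.24 for Cnp and −0.36 for Mag, so the order of the genes differed between the pools. Share and level come from the same libraries, and high fat diet replicate 7 had both the highest share and the fewest neurons. Doublet calling was not run in that mouse, and the part of doublets in its level was not tested.

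**Figure D5:**
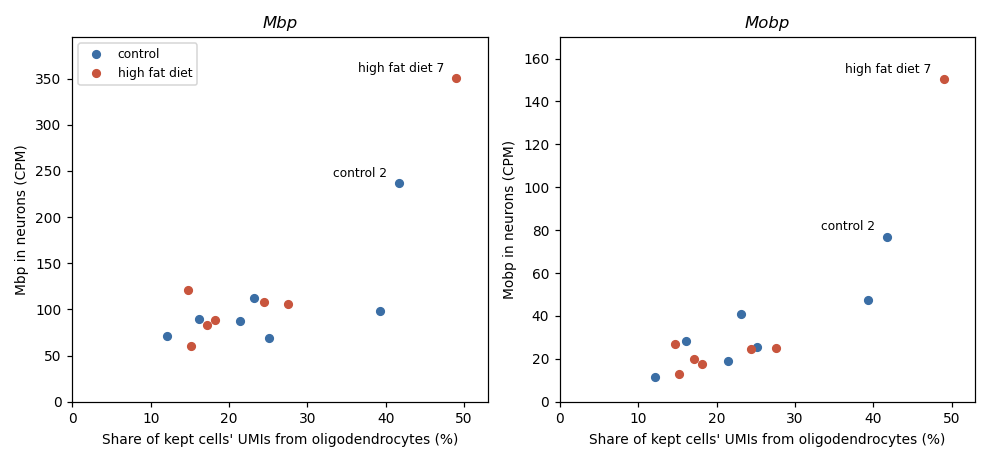
CPM of Mbp and Mobp in neurons against the share of each mouse's kept UMIs found in oligodendrocytes, in percent, 1 point per mouse, blue for control and red for high fat diet. High fat diet replicate 7, with 12 neurons, lies at the far right at 351 CPM of Mbp and 150 CPM of Mobp, and control replicate 2 next to it at 237 and 77.0 CPM.

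By diet, neuronal Mobp ran from 11.6 to 77.0 CPM in control mice (median 28.5) and from 13.1 to 150 CPM in high fat diet mice (median 24.5). The log2 fold change was −0.63 (SE 0.41, edgeR adjusted p = 0.9999), the lowest of the 8 genes that passed the filter, which Opalin did not. That of Cldn11 was the highest at 0.38 (SE 0.42), and Mbp lay at −0.10 (SE 0.29). Of 10383 genes tested in neurons 0 passed (0%, 123 at an unadjusted p under 0.05). With single mice left out, the Mobp fold change ran from −0.85 to −0.25 and that of Cldn11 from 0.22 to 0.69, and 0 of the 9 genes passed. The Mobp value nearest to 0 was the one without control replicate 2, and that omission gave the highest value for Cldn11. Without high fat diet replicate 7, with its 12 neurons, Mobp was −0.70, Cldn11 0.25 and Mbp −0.19.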

How the data were processed

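Drop-seq UMI counts were measured in 14 mice, 1 library each. Per the submitters' processing notes, the software was Picard 2.2.4, STAR 2.4.2a and bcl2fastq 2.18.0.12 with the build mm10/GRCm38, and the deposited tables hold whole-number counts of UMIs per gene and barcode, not normalized. Which tool counted UMIs, with which annotation and strand rule, is not given in the sources used here.

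Barcodes with at least 500 UMIs, 300 genes and at most 20% mt- UMIs were kept (Python 3.11.15, scanpy 1.11.5). Doublets were called with Scrublet at an expected 5%, except in the 3 mice with under 300 cells. Clustering used 1999 variable genes without the 9 genes, 30 principal components, 15 neighbours and Leiden resolution 1. A cluster was named from at least 3 markers.

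UMIs were summed per mouse and class with at least 10 cells. Diet (high fat diet minus control, with the sequencing pool as a covariate) and type (with the mouse as a block) were tested with edgeR 4.0.16 quasi-likelihood (R 4.3.3, TMM, filterByExpr, robust), adjusted by Benjamini-Hochberg over all genes at 0.05. The SE given with an edgeR fold change was computed back from that fold change and the F value of the test. The code was tested on simulated data. Type pairs come from the same mouse. Alternatives were DESeq2 1.42.0, DESeq2's size factors in edgeR, no filter, at least 1000 UMIs, each pool alone, each mouse left out, 3 mice left out, no block, and types from clusters. Correlations used 100000 permutations. Shares were set at 500 UMIs by thinning. Libraries held 147470 to 5611524 UMIs, and intervals cover counting error only at 95%.

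Named were the 9 genes, the 4 genes that define the types, the 4 genes of each list with the smallest p where a comparison had calls, and the 5 genes most like the summed level. Of these, 1 is not reported here. The members and lists were chosen with earlier results of these data known.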

Additional observations from a re-analysis of the deposited data

Results flagged for a closer look

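Within each diet, a mouse was marked where its gap to the nearest other mouse was large for the range of its group (Dixon's 95% value). This marked 12 of 76 groups, where chance would mark about 1 in 20 independent groups. Many groups share the same mice and cells, so no excess over chance can be read from this.

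Opalin in oligodendrocytes of high fat diet replicate 3 was 2113 CPM, against 1055 to 1342 CPM in the other 6 mice on that diet. In the Ptgds/Il33 type of the same mouse it was 2667 CPM, against 1216 to 1597 CPM. These values rest on 691 and 579 cells.

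Neurons of high fat diet replicate 7 (12 cells, 39893 UMIs), a mouse in which doublet calling was not run, stood apart in 6 genes. Mbp was 351 CPM from 14 UMIs (others 60.3 to 121), Mobp 150 CPM from 6 UMIs (13.1 to 26.8) and Mag 125 CPM from 5 UMIs (17.4 to 32.5). Cnp was 175 CPM from 7 UMIs (20.8 to 34.7), Mal 150 CPM from 6 UMIs (7.27 to 17.4) and Cldn11 175 CPM from 7 UMIs (8.72 to 19.7).

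Neurons of control replicate 2 (271 cells) had 237 CPM of Mbp, against 68.6 to 113 CPM in the other control mice, and 23.6 CPM of Cldn11, against 5.38 to 12.4 CPM. In OPCs of the same mouse Cnp was 342 CPM from 41 UMIs, against 85.7 to 145 CPM. Cnp in OPCs of high fat diet replicate 6 was 730 CPM from 18 UMIs in 24 cells, against 53.7 to 226 CPM.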

How the results depend on the processing

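No setting called a member by diet, and 7 of the 9 genes passed between the types with any 1 mouse left out. Of the fold changes under other settings, 531 kept sign and side of the threshold, 70 changed sign, and of those that kept their sign 6 lost a call and 1 gained one. Counted apart was 1 more, Opalin with types from clusters, which kept its sign but moved from −3.91 to −2.82. Without the replicate block 4 genes passed between the types, and 604 genes in all against 980. With no filter 1648 passed, Mbp turned to −0.11 and gained a call, and Mobp turned to −0.031 and lost its call. Mobp also missed with at least 1000 UMIs (0.083, adjusted p = 0.0594, edgeR) and in pool 1 (0.082, adjusted p = 0.227). Mog turned to 0.025 in pool 2 and 0.014 with types from clusters. The causes were not tested.

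Diet fold changes near 0 changed sign in oligodendrocytes. Pool 2 gave Mbp −0.14, Mobp −0.19, Cnp −0.090, Mal 0.016, Cldn11 −0.00465 and Opalin 0.040, and pool 1 Mag 0.065 and Cldn11 −0.0097. Without 3 mice Mobp was −0.030, Mag 0.0059 and Opalin 0.12. At least 1000 UMIs gave Mag 0.043, Mog 0.018, Mal 0.0036 and Opalin 0.0053. Without the cluster led by Klk6 and Enpp6, chosen after seeing the data, Mal was 0.000179, Cldn11 −0.0073 and Opalin 0.016. DESeq2 gave Cldn11 −0.00291, and no filter Cldn11 −0.012 and Opalin 0.00296. In OPCs Mbp was −0.22 in pool 1. In neurons Mbp was 0.092 without 3 mice, pool 1 gave Mag 0.049 and Ermn −0.042, pool 2 Mal −0.084, and at least 1000 UMIs Ermn −0.031.

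With single mice left out, oligodendrocyte fold changes ran over −0.026 to 0.17 (Mobp), −0.076 to 0.017 (Mag), −0.043 to 0.074 (Cnp), −0.061 to 0.023 (Mal), −0.057 to 0.061 (Cldn11), −0.16 to 0.16 (Opalin) and −0.15 to 0.023 (Ermn). OPC Mbp ran over −0.14 to 0.80, and neuronal Mbp over −0.22 to 0.19, Cnp −0.0092 to 0.26, Mobp −0.85 to −0.25, Cldn11 0.22 to 0.69 and Ermn −0.11 to 0.37. With no filter the diet test called 2 genes in oligodendrocytes, 1 in Ptgds/Il33 cells, 1 in OPCs and 42 in neurons, and pool 2 alone gave 1 in Klk6/S100b cells and 1 in the test of diet by type, against 0 in each. None of these was a member. Mbp was seen in 99.95% of oligodendrocytes and 28.0% of neurons without thinning. No paired analysis was possible because the replicate numbers of the diets are in accession order. At least 1000 UMIs left no member to test in OPCs. OPC levels other than Mbp, and values from 12 neurons, are limited by depth.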
